A study of Mus musculus with 10 samples.

Results

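The extracellular matrix genes of mouse embryonic stem cells (ESC) were followed in 3 groups of cells that differ in DIDO3, the largest protein of the Dido1 gene. They were taken by name: every numbered collagen chain gene (Col), every numbered laminin chain gene (Lama, Lamb, Lamc), and 14 further matrix genes, namely Fn1, Fbn1, Sparc, Postn, Thbs1, Dcn, Lum, Nid1, Nid2, Hspg2, Eln, Vcan, Lox and Loxl2. This gave 69 of the 19392 genes measured, with 168 of 43031 features. They were divided into 19 basement membrane genes (Col4 chains, laminins and nidogens), 12 fibroblast-type collagen genes (Col1, Col3, Col5 and Col6 chains) and 38 other matrix genes. In 52 of them the mean reached 1 TPM (a share of the library corrected for feature length) in at least 1 group. The other 17, which included Dcn, Lum, Hspg2, Lama2 and Lama4, stayed between 0 and 0.971 TPM as their highest group mean.

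All cells were C57BL/6 mouse ESC kept in serum with leukemia inhibitory factor, and each group was represented by 3 libraries of total RNA. WT cells carried intact Dido1. DIDO3ΔE16 cells (labelled DIDO3_exon16 mutant) lacked exon 16, which is specific to DIDO3; they came from mice with a floxed exon crossed to Sox2-Cre mice, in which Cre acts in the early embryo proper. DIDO3ΔCT+HADIDO3 cells (labelled DIDO3_dCT+HADIDO3 mutant) carried a C-terminal deletion of DIDO3 and stably expressed HA-tagged DIDO3, and the deletion line without HA-DIDO3 was not analysed here. Cultures grew either on mitomycin C-treated mouse embryonic fibroblasts or on gelatin, and the labels do not say which surface any library came from, how many clones a line comprised, or whether the libraries of a group came from separate cultures, so p-values measure the spread between these libraries. Features were 3′UTRs with 2 kb added downstream, so each value also counts reads past the annotated end. That added stretch can be most of a feature: in Lama1 196 of 2196 bases were 3′UTR. The paper reports reads running past the end of some genes in DIDO3ΔE16. Whether a difference here lay in the amount of mRNA or in such reads was not tested.

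Basement membranes are thin sheets on which epithelia rest. They are built from a laminin network, in which each molecule joins an alpha, a beta and a gamma chain, and a type IV collagen network, in which nidogens link the sheets together; cells of the early mouse embryo, in particular the primitive and parietal endoderm, deposit them in quantity. Fibroblasts make a different matrix of fibrils, in which types I, III and V collagen assemble in parallel and type VI collagen forms microfibrils around cells, with lysyl oxidase (Lox) as the enzyme that crosslinks the fibrils.

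Most fibroblast-type collagen genes tested were called higher in DIDO3ΔE16 than in WT, and 5 of the 9 tested were called lower in DIDO3ΔCT+HADIDO3. Of the 69 genes, 56 could be tested between DIDO3ΔE16 and WT, because a gene was tested only where it was above 0 in every library compared; 23 were called higher and 6 lower, against 11.5% and 4.45% of the 14978 genes tested. Between DIDO3ΔCT+HADIDO3 and WT, 53 were tested, with 5 called higher and 19 lower, against 10% and 8.09% of 14726 genes. A gene was called where limma gave a Benjamini-Hochberg adjusted p under 0.05, over all sites, and the log2 fold change was 0.7 or more in size. Over all sites, minor ones included, 10.2% were called higher and 4.94% lower in DIDO3ΔE16, and 10.1% and 7.24% in DIDO3ΔCT+HADIDO3. Both comparisons use the same WT libraries. The flow cell term, here and below, divided libraries by the start of the flow cell name only. It was C7A9 in WT replicates 1 and 4 and C79M in all others, so single flow cells were not told apart. With the flow cell as a term, 12 of the 53 calls against WT were lost, each named beside its gene. In all 53 every mutant library lay past WT replicate 2-3, the WT library of the mutants' own flow cells. That library was in the fits that made these calls, so the order largely follows from them and tests no batch.

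By class, 8 of 11 tested fibroblast-type genes were called higher in DIDO3ΔE16 and 1 lower, with a median log2 fold change of 1.24; Col5a3 was the 1 called lower, and Col6a4 and Col6a5 were not called. In DIDO3ΔCT+HADIDO3, 2 of 9 were called higher (Col5a3 and Col6a4) and 5 lower, with a median of -1.0, and Col6a2 and Col6a5 were not called. Basement membrane genes showed few increases in either line: in DIDO3ΔE16 1 of 17 was called higher and 5 lower (median -0.070), and in DIDO3ΔCT+HADIDO3 1 of 17 was called higher and 5 lower (median -0.30). The other matrix genes were called higher in 14 of 28 in DIDO3ΔE16 with none lower (median 0.86), and in DIDO3ΔCT+HADIDO3 higher in 2 of 27 and lower in 9 (median -0.51). Over all genes tested the medians were -0.0019 in DIDO3ΔE16 and -0.048 in DIDO3ΔCT+HADIDO3.

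**Figure D1:**
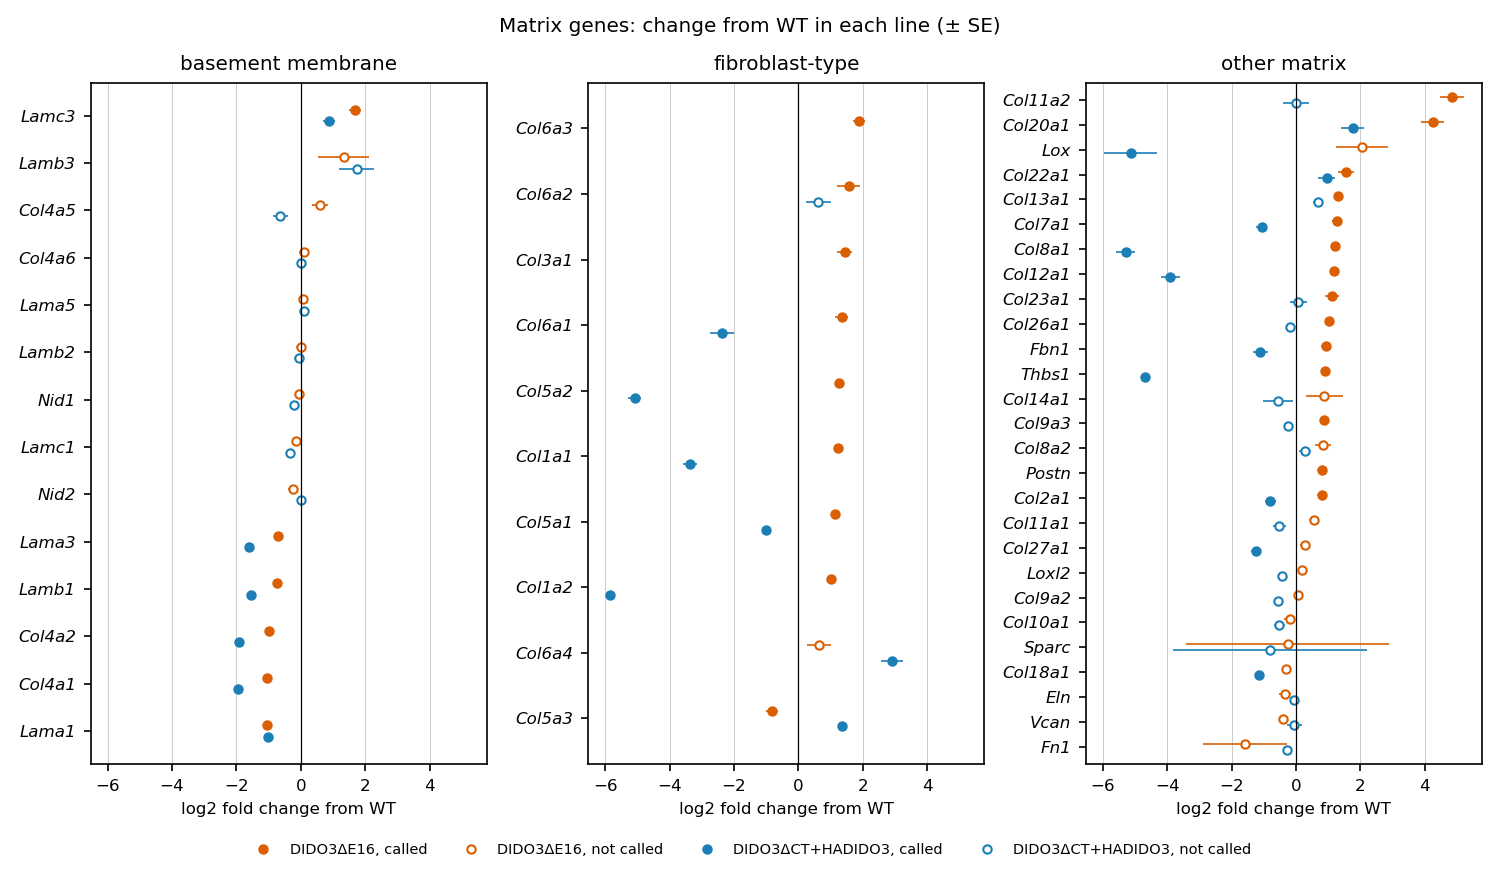
Log2 fold change from WT (x axis) of 51 matrix genes that reached 1 TPM, by class, in DIDO3ΔE16 (orange) and DIDO3ΔCT+HADIDO3 (blue), with bars of 1 SE; filled points were called and open points were not, and Col3a1, Col6a3 and Postn have no blue point because they were at 0 in a library. Among fibroblast-type genes the orange points lie to the right of 0 except for Col5a3, and 5 of 8 blue points were called to the left, whereas the called basement membrane genes other than Lamc3 lie to the left in both lines.

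Coverage in features was least in DIDO3ΔE16 replicate 1 (1.46 Gb) and came to at most 2.61 Gb in a library, and 28664 to 30504 features were above 0. Dido1 itself is given as a description of the groups, since its 3′ sites were not shown to lie in the deleted exon: its most distal site (mm10, chr2:180655963-180659338, minus strand) had 17.9, 16.8 and 13.7 TPM in WT, 0.546, 0.511 and 0.307 in DIDO3ΔE16, and 12.1, 11.5 and 10.9 in DIDO3ΔCT+HADIDO3. Of its 3 further sites, that at chr2:180678954-180683548 was also lower in DIDO3ΔE16 (log2 fold change -2.97), whereas the site at chr2:180663936-180669364 was higher there (4.12; 4.90, 4.78 and 4.79 TPM in WT against 90.7, 96.1 and 81.7), and that at chr2:180686711-180688819 was higher in DIDO3ΔE16 (1.90) and in DIDO3ΔCT+HADIDO3 (1.77). All 10 pluripotency markers listed were found, with summed levels of 5819 to 7044 TPM in WT, 7687 to 8183 in DIDO3ΔE16 and 6169 to 8132 in DIDO3ΔCT+HADIDO3. By limma 0 were called in DIDO3ΔE16 (3 had an unadjusted p under 0.05), and in DIDO3ΔCT+HADIDO3 1 was called higher (Zfp42) and 2 lower (Fgf4 and Klf4). Single libraries set much of these sums: Esrrb had 5.18, 1155 and 8.78 TPM in WT, 1260.0, 1230.0 and 1271 in DIDO3ΔE16 and 1903, 9.70 and 1684 in DIDO3ΔCT+HADIDO3, and Nanog 664, 676 and 3.10 TPM in WT. The labelled WT replicates 2 and 3 name 1 library, called WT replicate 2-3 here. By the flow cell names in the labels, WT replicates 1 and 4 were run apart from all other libraries. Sites listed as several features can drop in single libraries: among sites that reached 10 TPM and shared no base with another, 812 of 4179 listed several times differed over 10-fold within a group, against 21 of 6222 listed once. Among the matrix genes, the highest library of a group exceeded the lowest 173-fold for Sparc, 19.5-fold for Fn1, 6.93-fold for Lamb3 and 6.45-fold for Lox, so their values are given for every library. Opposite-strand sites of other genes overlap those of Lama5, Lamb3, Nid2, Col18a1, Col8a2, Col9a2, Col9a3 and Loxl2, and since no strand option is named for the counting, whether their reads were kept apart was not tested.

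Many 3′UTRs of the matrix genes hold a sequence that the choice of genes did not use. MicroRNAs of the miR-29 family are known regulators of collagen mRNAs, and their levels were not measured here. The mature miR-29 sequences (RefSeq, GRCm38.p6) are shown because their common seed, bases 2 to 8 in capitals, defines the match that was counted:
mmu-miR-29a-3p: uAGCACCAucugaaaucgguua
mmu-miR-29b-3p: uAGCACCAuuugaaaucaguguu
mmu-miR-29c-3p: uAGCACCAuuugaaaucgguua

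The match to this seed, TGGTGCT on the sense strand, was present in the longest annotated 3′UTR (GENCODE vM21) of 30 of the 69 matrix genes (43.5%), against 2754 of 21022 protein-coding genes (13.1%). Within the first 1000 bases of 3′UTRs that are at least that long, 14 of 34 matrix genes held it (41.2%) and 1027 of 10236 genes in all (10%). It stood in 7 of 12 fibroblast-type genes, in 7 of 19 basement membrane genes (the Col4 chains and Lamc1) and in 16 of 38 other matrix genes. Col1a2 and Col6a1, which were called in opposite directions in the lines, held no match. The first match in 4 fibroblast-type genes and in both abundant type IV chains is shown with 15 bases before it and 2 after (mm10, 5′ to 3′ on the strand of the gene, match in capitals), as examples from both classes:
Col1a1: gtgggaaggaatttcTGGTGCTat
Col3a1: ttcaaaatgtctcaaTGGTGCTat
Col5a1: ataactatgaacattTGGTGCTga
Col5a2: cttttcttttaatgaTGGTGCTaa
Col4a1: gccaccgtcacaacaTGGTGCTac
Col4a2: gtgggaaggccacgtTGGTGCTta

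These windows lie at chr11:94952523-94952546 (plus strand), chr1:45348967-45348990 (plus), chr2:28037989-28038012 (plus), chr1:45374964-45374987 (minus), chr8:11199760-11199783 (minus) and chr8:11448344-11448367 (plus), each inside the 3′UTR. Genes with a match did not all move one way: of 24 tested in DIDO3ΔE16, 12 were called higher and 3 lower (median log2 fold change 0.87), and of 32 without a match 11 were called higher and 3 lower (median 0.42). In DIDO3ΔCT+HADIDO3, 2 of 22 genes with a match were called higher and 11 lower (median -0.72), and without a match 3 of 31 higher and 8 lower (median -0.24). A match of these letters is a description of the sequence and not a site shown to be used.

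Type I collagen is the main fibril collagen, a trimer of Col1a1 and Col1a2 chains. Col1a1 (mm10, chr11:94951620-94955042, plus strand) had 10.2, 11.4 and 13.4 TPM in the WT libraries, 28.2, 28.0 and 29.9 in DIDO3ΔE16 and 0.963, 0.957 and 1.51 in DIDO3ΔCT+HADIDO3. Col1a2 (mm10, chr6:4540663-4543543, plus strand) had 18.1, 16.6 and 20.0 TPM in WT, 36.5, 39.2 and 38.9 in DIDO3ΔE16 and 0.229, 0.246 and 0.242 in DIDO3ΔCT+HADIDO3. No library of one group overlapped another group for either chain: DIDO3ΔE16 was highest and DIDO3ΔCT+HADIDO3 lowest. The log2 fold change (± SE) of Col1a1 was 1.24 ± 0.12, adjusted p = 0.00173 (limma) in DIDO3ΔE16 and -3.36 ± 0.21, adjusted p = 0.000434 in DIDO3ΔCT+HADIDO3. For Col1a2 it was 1.0 ± 0.084, adjusted p = 0.00117 in DIDO3ΔE16 and -5.84 ± 0.12, adjusted p = 5.02e-05 in DIDO3ΔCT+HADIDO3, on the log2(TPM + 0.1) scale, which understates the change of a gene near 0. The 2 further 3′ sites of Col1a2 were also called higher in DIDO3ΔE16.

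Col3a1, which forms fibrils with type I collagen, was low: 0.630, 1.06 and 0.757 TPM in WT, 2.24, 2.25 and 2.84 in DIDO3ΔE16, and listed at 0 in all 3 DIDO3ΔCT+HADIDO3 libraries, so that only the first comparison was tested (1.43 ± 0.23, adjusted p = 0.00836, limma, and 0.0626 with the flow cell as a term). Its neighbour Col5a2, whose gene body lies 24.6 kb away on chromosome 1 in tail-to-tail orientation, had 6.55, 6.01 and 6.03 TPM in WT, 14.8, 16.3 and 15.7 in DIDO3ΔE16 and 0.105, 0.131 and 0.0520 in DIDO3ΔCT+HADIDO3. Both genes thus had the highest libraries in DIDO3ΔE16 and the lowest in DIDO3ΔCT+HADIDO3 without overlap. For Col5a2, limma gave 1.26 ± 0.068, adjusted p = 0.000377 in DIDO3ΔE16 and -5.09 ± 0.21, adjusted p = 0.00015 in DIDO3ΔCT+HADIDO3.

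The type V chains, which set fibril diameter, did not move as a block. Col5a1 had 12.3, 13.7 and 16.2 TPM in WT, 31.3, 32.4 and 32.3 in DIDO3ΔE16 and 7.0, 7.74 and 7.58 in DIDO3ΔCT+HADIDO3. It was called in both lines, in opposite directions, at 1.13 ± 0.12, adjusted p = 0.00218 and -1.0 ± 0.13, adjusted p = 0.00326 (limma), and its DIDO3ΔCT+HADIDO3 mean of 7.44 TPM stood above those of Col1a1 (1.14 TPM) and Col1a2 (0.239 TPM). Col5a3 ran the other way, with 4.29, 4.02 and 4.51 TPM in WT, 2.46, 3.14 and 2.02 in DIDO3ΔE16 and 12.9, 11.4 and 11.6 in DIDO3ΔCT+HADIDO3. It was called lower in DIDO3ΔE16 (-0.81 ± 0.19, adjusted p = 0.0247) and higher in DIDO3ΔCT+HADIDO3 (1.36 ± 0.10, adjusted p = 0.000601) by limma. The DIDO3ΔE16 call of Col5a3 was lost in 5 of the 6 fits that each left out 1 library (all but DIDO3ΔE16 replicate 2), with an adjusted p up to 0.0722 or a log2 fold change of -0.66, and with the flow cell as a term (adjusted p = 0.164).

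Type VI chains form the beaded microfibrils around cells. Col6a1 had 2.88, 2.52 and 4.04 TPM in WT, 8.01, 8.69 and 8.36 in DIDO3ΔE16 and 0.498, 0.945 and 0.351 in DIDO3ΔCT+HADIDO3, with no overlap between groups (1.34 ± 0.20, adjusted p = 0.00573 in DIDO3ΔE16 and -2.37 ± 0.38, adjusted p = 0.00695 in DIDO3ΔCT+HADIDO3, limma). The DIDO3ΔCT+HADIDO3 call was lost with the flow cell as a term (adjusted p = 0.0658). Col6a3 had 0.461, 0.663 and 0.592 TPM in WT and 2.59, 2.38 and 2.34 in DIDO3ΔE16, and was at 0 in 2 DIDO3ΔCT+HADIDO3 libraries and 0.108 in the third. It was called higher in DIDO3ΔE16 at 1.87 ± 0.19, adjusted p = 0.00183 (limma). Col6a2 was lower in all WT libraries (0.885, 1.34 and 2.27 TPM) than in DIDO3ΔE16 (4.76, 4.88 and 3.96), whereas DIDO3ΔCT+HADIDO3 (1.81, 2.58 and 2.80) overlapped WT. Its call in DIDO3ΔE16 (1.56 ± 0.36, adjusted p = 0.0242, limma) was lost without WT replicate 2-3 or without any 1 of the DIDO3ΔE16 libraries (adjusted p up to 0.0758), and with the flow cell as a term (0.127). Col6a4, a relative of the alpha 3 chain, was near 0 in WT (0.106, 0.107 and 0.322 TPM) and DIDO3ΔE16 (0.355, 0.343 and 0.279) and higher in every DIDO3ΔCT+HADIDO3 library (1.87, 1.87 and 2.20), at 2.9 ± 0.35, adjusted p = 0.00269 (limma). The neighbouring Col6a5 had a mean below 1 TPM in every group, and Col6a6 was listed at 0.

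**Figure D2:**
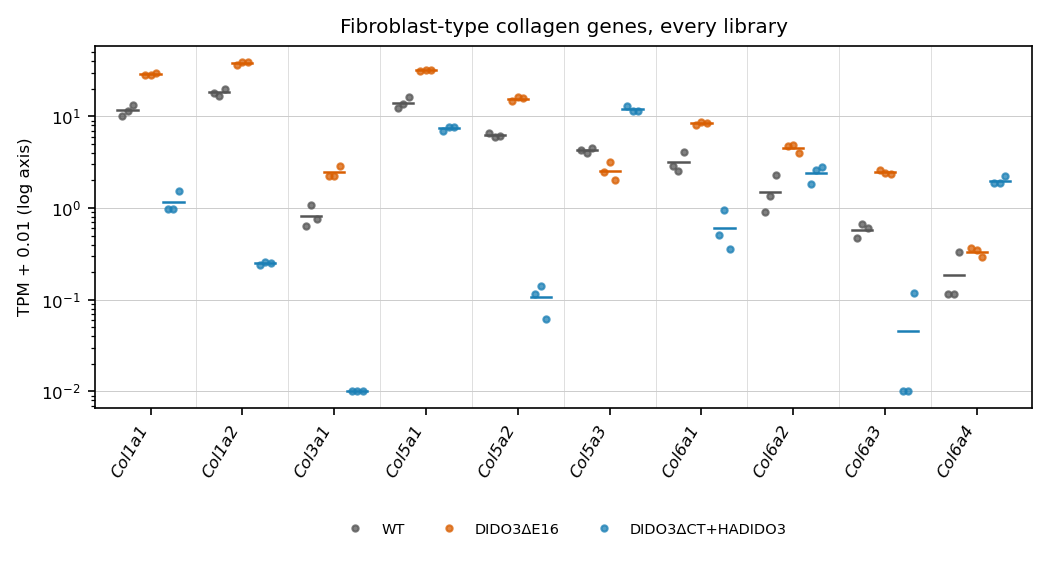
TPM + 0.01 on a log axis for the 10 fibroblast-type collagen genes that reached 1 TPM; points are the 3 libraries of each group and lines their means. DIDO3ΔE16 points lie above WT for every gene except Col5a3, with overlap for Col6a4, and DIDO3ΔCT+HADIDO3 points fall to 1.51 TPM or below for Col1a1, Col1a2, Col3a1, Col5a2, Col6a1 and Col6a3 but are the highest for Col5a3 and Col6a4.

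Fibroblast markers moved in part with these genes. All 14 listed fibroblast markers were found, and 8 were called higher in DIDO3ΔE16 and none lower (57% and 0%, against 11.5% and 4.45% of all genes). Of the 11 tested in DIDO3ΔCT+HADIDO3, 2 were called higher and 5 lower (18% and 45%, against 10% and 8.09%). Their summed level was 486 to 502 TPM in WT, 702 to 721 in DIDO3ΔE16 and 321 to 329 in DIDO3ΔCT+HADIDO3, and Twist2 was the 1 marker at 0 in all libraries of a group (DIDO3ΔCT+HADIDO3). In 5 of them (Bgn, Fbln2, Prrx1, S100a4 and Twist2) the DIDO3ΔCT+HADIDO3 mean was under 0.1 of WT, and their DIDO3ΔE16 means were 1.95 to 3.36 times WT. The matrix genes under 0.1 of WT in DIDO3ΔCT+HADIDO3, among those that reached 1 TPM in WT or DIDO3ΔE16, were a set defined after their values were seen. They numbered 10 (Col1a1, Col1a2, Col3a1, Col5a2, Col6a3, Col8a1, Col12a1, Lox, Postn and Thbs1), and their DIDO3ΔE16 means were 1.88 to 4.26 times WT. Col3a1 and Col6a3, the gene at 4.26, reached 1 TPM in DIDO3ΔE16 alone, so their place in the set depends on their level there. Other markers on the list went against that order: Pdgfrb averaged 5.16 ± 0.146 TPM (SD, n = 3) in WT, against 18.1 ± 1.29 in DIDO3ΔE16 and 39.6 ± 1.85 in DIDO3ΔCT+HADIDO3, and Thy1 19.1 ± 0.838, 31.9 ± 2.19 and 54.4 ± 2.00. The part of fibroblasts in the matrix results was not tested, and in such bulk RNA fewer cells of a type and less RNA per cell cannot be told apart.

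**Figure D3:**
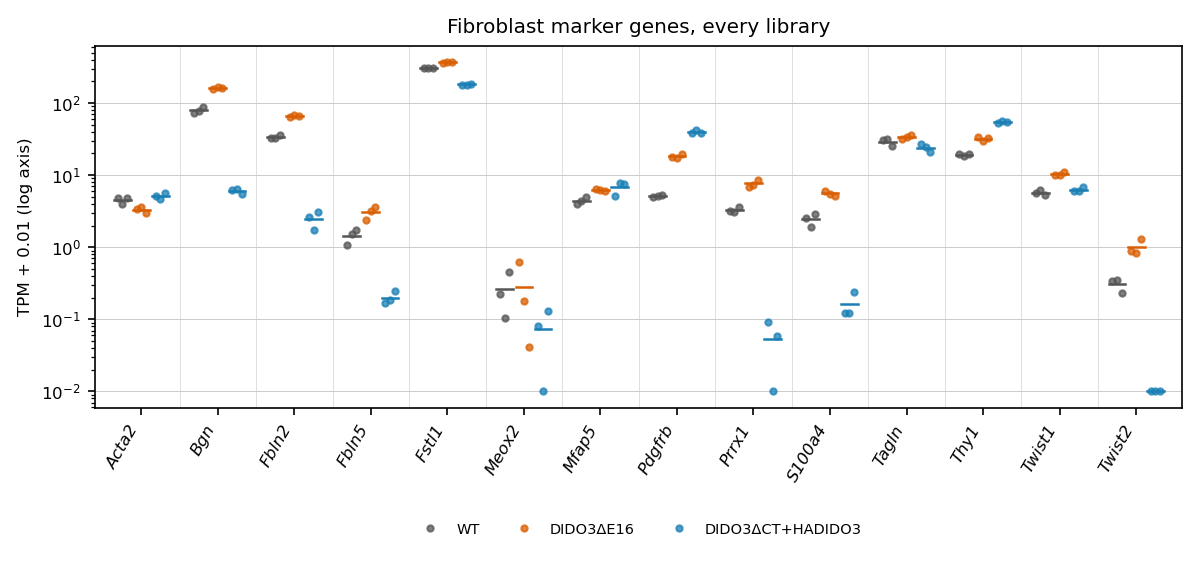
TPM + 0.01 on a log axis for the 14 fibroblast marker genes in every library, with lines at group means. Bgn, Fbln2, Fbln5, Fstl1, Prrx1, S100a4 and Twist2 have the order DIDO3ΔE16 above WT above DIDO3ΔCT+HADIDO3, whereas Pdgfrb and Thy1 are highest in DIDO3ΔCT+HADIDO3.

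Among the basement membrane genes, both abundant type IV collagen chains fell in each line. Col4a1 (mm10, chr8:11196423-11199800, minus strand) had 131, 131 and 143 TPM in WT, 66.4, 69.8 and 69.6 in DIDO3ΔE16 and 34.0, 38.5 and 38.9 in DIDO3ΔCT+HADIDO3. Col4a2 (mm10, chr8:11448317-11451287, plus strand) had 78.9, 90.1 and 94.6 TPM in WT, 47.1, 43.5 and 48.5 in DIDO3ΔE16 and 23.2, 24.8 and 27 in DIDO3ΔCT+HADIDO3. The groups did not overlap for either chain, with WT highest and DIDO3ΔCT+HADIDO3 lowest. Limma gave -1.04 ± 0.055, adjusted p = 0.000348 in DIDO3ΔE16 and -1.96 ± 0.068, adjusted p = 0.000108 in DIDO3ΔCT+HADIDO3 for Col4a1. It gave -0.98 ± 0.093, adjusted p = 0.00162 in DIDO3ΔE16 and -1.91 ± 0.094, adjusted p = 0.000233 in DIDO3ΔCT+HADIDO3 for Col4a2. The chains form 1 trimer, and their genes lie head to head on chromosome 8 with annotated starts that overlap.

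Of the other type IV chains, Col4a6 averaged 6.92 ± 0.568 TPM (SD, n = 3) in WT, against 7.73 ± 1.11 in DIDO3ΔE16 and 7.52 ± 0.642 in DIDO3ΔCT+HADIDO3, with overlapping libraries. Col4a5, which lies head to head with Col4a6 on chromosome X, had 1.12, 1.81 and 1.36 TPM in WT, 2.05, 1.96 and 2.89 in DIDO3ΔE16 and 0.765, 1.05 and 1.0 in DIDO3ΔCT+HADIDO3. It was not called against WT in either line (adjusted p = 0.137 and 0.0876, limma), although the DIDO3ΔE16 and DIDO3ΔCT+HADIDO3 libraries did not overlap. Col4a3 and Col4a4, the chains of mature kidney and lung membranes, stayed below 1 TPM in every group and were not tested against WT.

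Laminin chains parted by type. Lama1, the alpha chain of the laminin of the early embryo, had 23.3, 23.6 and 22.8 TPM in WT, 12.9, 11.2 and 11.2 in DIDO3ΔE16 and 12.2, 12.1 and 12.2 in DIDO3ΔCT+HADIDO3. It fell in both lines, with log2 fold changes of -1.04 ± 0.08, adjusted p = 0.000931 in DIDO3ΔE16 and -1.03 ± 0.047, adjusted p = 0.000199 in DIDO3ΔCT+HADIDO3 (limma), and the mutant lines overlapped each other. Lamb1, its beta partner, had 58.5, 68.0 and 68.5 TPM in WT, 36.9, 39.7 and 43.9 in DIDO3ΔE16 and 24.6, 22.8 and 24.6 in DIDO3ΔCT+HADIDO3. These values are from the most abundant of 4 Lamb1 sites (mm10, chr12:31285746-31287746, plus strand), which holds 1 annotated 3′UTR base in 2001. The site lies inside the gene body (chr12:31265234-31329644), upstream of its annotated end. Here the 3 groups separated, with -0.76 ± 0.10, adjusted p = 0.00402 in DIDO3ΔE16 and -1.53 ± 0.088, adjusted p = 0.000326 in DIDO3ΔCT+HADIDO3 (limma). Lama3, a chain of epithelial laminin, had 14.5, 13.3 and 12.2 TPM in WT, 7.20, 8.75 and 9.50 in DIDO3ΔE16 and 3.99, 5.10 and 4.65 in DIDO3ΔCT+HADIDO3. It was called lower in both (-0.71 ± 0.12, adjusted p = 0.00962 and -1.63 ± 0.11, adjusted p = 0.000583, limma), but its DIDO3ΔE16 log2 fold change fell short of 0.7 without WT replicate 1 or DIDO3ΔE16 replicate 1 (to -0.61), and its adjusted p was 0.0736 with the flow cell as a term.

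Lamc1, the gamma chain shared by most laminins and the most abundant basement membrane gene, had 524, 541 and 544 TPM in WT, 489.6, 507 and 512 in DIDO3ΔE16 and 454, 459 and 446 in DIDO3ΔCT+HADIDO3. These small steps did not overlap between groups and had low adjusted p values (0.0201 and 0.00261, limma), but at log2 -0.16 and -0.35 they were under the size needed for a call. Lamc3 was the basement membrane gene called higher in both lines, from a low base: 0.338, 0.253 and 0.317 TPM in WT, 1.18, 1.19 and 1.34 in DIDO3ΔE16 and 0.652, 0.672 and 0.707 in DIDO3ΔCT+HADIDO3. Limma gave 1.68 ± 0.18, adjusted p = 0.00233 in DIDO3ΔE16 and 0.87 ± 0.18, adjusted p = 0.0152 in DIDO3ΔCT+HADIDO3, and the second call was lost without DIDO3ΔCT+HADIDO3 replicate 3 (adjusted p = 0.0521).

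The alpha 5 and beta 2 chains, which replace Lama1 and Lamb1 in mature membranes, were not called. Lama5 averaged 121 ± 8.65 TPM (SD, n = 3) in WT, against 132 ± 5.29 in DIDO3ΔE16 and 138 ± 8.13 in DIDO3ΔCT+HADIDO3, and Lamb2 had 16.8 ± 2.40, 17.5 ± 2.00 and 17.1 ± 1.98. Their fold changes against WT lay between -0.071 and 0.094 on the log2 scale, and none passed the test (adjusted p = 0.569 and 0.455 for Lama5, limma). Lamb3, which pairs with Lama3 in epithelial laminin, had 1.41, 1.56 and 1.11 TPM in WT, 6.50, 1.03 and 7.15 in DIDO3ΔE16 and 3.41, 3.04 and 12.2 in DIDO3ΔCT+HADIDO3. Single libraries decided its tests: it was not called in either line, was called higher in DIDO3ΔE16 without DIDO3ΔE16 replicate 2 (log2 fold change 2.20, adjusted p = 0.00567, limma), and was called higher in DIDO3ΔCT+HADIDO3 without DIDO3ΔCT+HADIDO3 replicate 3 (1.11, adjusted p = 0.0212).

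The nidogens, which bridge laminin and type IV collagen, were abundant in all groups. Nid1 had 313, 292 and 308 TPM in WT, 297, 301 and 310.4 in DIDO3ΔE16 and 269.6, 275 and 299.5 in DIDO3ΔCT+HADIDO3. The main site of Nid2 had 215, 224 and 172 TPM in WT, 166, 203 and 163 in DIDO3ΔE16 and 212, 216 and 223 in DIDO3ΔCT+HADIDO3. Neither was called, and libraries of all groups overlapped WT. A second, upstream 3′ site of Nid2 (mm10, chr14:19806094-19808130, plus strand) behaved differently, with 66.2, 70.5 and 66.6 TPM in WT, 61.6, 61.4 and 60.9 in DIDO3ΔE16 and 115, 117 and 120.3 in DIDO3ΔCT+HADIDO3. It was called lower in DIDO3ΔE16 than in DIDO3ΔCT+HADIDO3 (log2 fold change -0.92 ± 0.027, adjusted p = 2.87e-05, limma), and its difference between DIDO3ΔCT+HADIDO3 and WT was just under the size of a call at 0.69 ± 0.039.

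**Figure D4:**
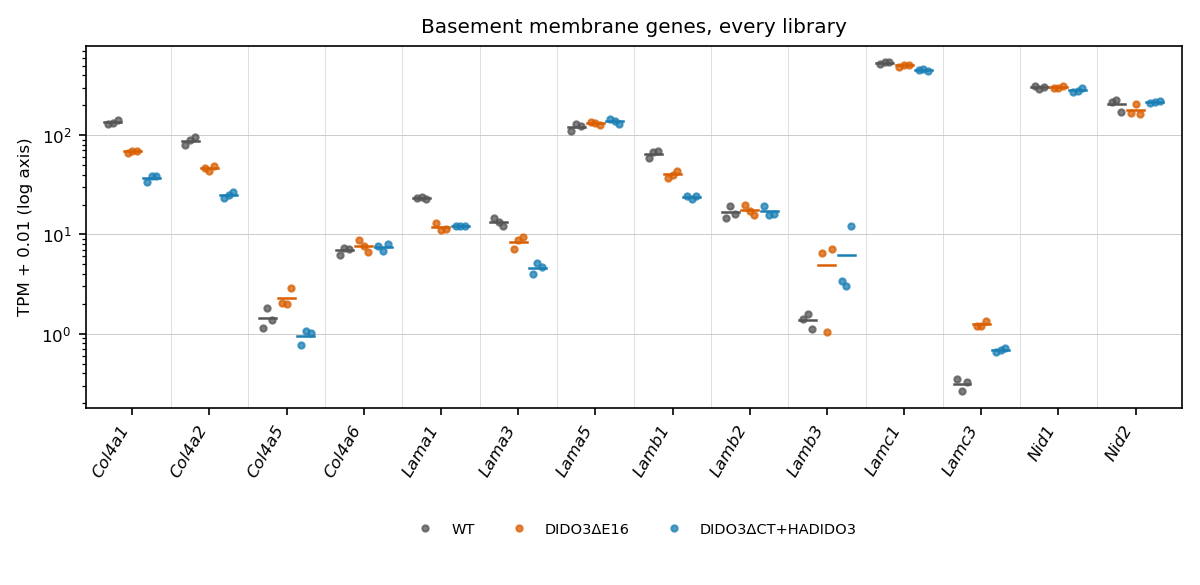
TPM + 0.01 on a log axis for 14 basement membrane genes that reached 1 TPM in a group, with a point for every library and lines at group means. Col4a1, Col4a2, Lama3 and Lamb1 step down from WT to DIDO3ΔE16 to DIDO3ΔCT+HADIDO3, Lama1 lies below WT in both lines, which overlap, and the libraries of Nid1, Nid2 and Lamb2 overlap between groups.

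Markers of the primitive and parietal endoderm, which deposits type IV collagen and laminin, moved in part with these genes. All 12 listed markers were tested: 6 were called lower and 2 higher in DIDO3ΔE16 (50% and 16.7%, against 4.45% and 11.5% of all genes). In DIDO3ΔCT+HADIDO3, 9 were called lower and 1 higher (75% and 8.33%, against 8.09% and 10%). Their summed level was 105 to 134 TPM in WT, 51.2 to 61.3 in DIDO3ΔE16 and 34.7 to 41.2 in DIDO3ΔCT+HADIDO3, and no marker was at 0 in all libraries of a group. Gata4 averaged 33.5 ± 2.51 TPM (SD, n = 3) in WT, against 13.5 ± 1.42 in DIDO3ΔE16 and 11.4 ± 0.606 in DIDO3ΔCT+HADIDO3, and Gata6 had 12.9 ± 0.686, 4.66 ± 1.37 and 6.98 ± 0.656. The part of such cells in the basement membrane result was not tested.

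Several other matrix genes had the profile of the type I chains. Thbs1, a secreted matrix glycoprotein and the most abundant of them, had 144, 153 and 159 TPM in WT, 286, 302 and 308 in DIDO3ΔE16 and 6.39, 6.70 and 5.54 in DIDO3ΔCT+HADIDO3 (0.91 ± 0.056, adjusted p = 0.00052 and -4.70 ± 0.10, adjusted p = 5.02e-05, limma). Col12a1, which decorates type I fibrils, had 7.10, 6.97 and 6.33 TPM in WT, 15.9, 16.1 and 16.3 in DIDO3ΔE16 and 0.568, 0.227 and 0.436 in DIDO3ΔCT+HADIDO3 (1.17 ± 0.065, adjusted p = 0.000394 and -3.90 ± 0.29, adjusted p = 0.000686, limma). Col8a1, a short network-forming chain, had 8.05, 6.91 and 9.0 TPM in WT, 18.9, 18.6 and 20.3 in DIDO3ΔE16 and 0.194, 0.0510 and 0.126 in DIDO3ΔCT+HADIDO3 (1.2 ± 0.12, adjusted p = 0.00167 and -5.29 ± 0.29, adjusted p = 0.000295, limma). In all 3 genes the DIDO3ΔCT+HADIDO3 libraries kept at most 6.70 TPM and no groups overlapped.

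Postn (periostin), secreted by fibroblasts, had 1.73, 2.05 and 1.87 TPM in WT and 3.78, 3.9 and 2.97 in DIDO3ΔE16, and was at 0.004, 0 and 0.057 in DIDO3ΔCT+HADIDO3. Its call in DIDO3ΔE16 (0.81 ± 0.16, adjusted p = 0.0158, limma) was lost without DIDO3ΔE16 replicate 1 or 2 (adjusted p up to 0.0578), and with the flow cell as a term (0.127). Lox had 37.9, 5.97 and 38.5 TPM in WT, 85.3, 90.6 and 92.2 in DIDO3ΔE16 and 0.342, 0.551 and 0.758 in DIDO3ΔCT+HADIDO3. It was called lower in DIDO3ΔCT+HADIDO3 (-5.14 ± 0.83, adjusted p = 0.00819, limma), and in DIDO3ΔE16 the fold change of 2.05 ± 0.80, adjusted p = 0.121 was not called, WT replicate 2-3 being far below the other WT libraries: without WT replicate 2-3 it was 1.16 with an adjusted p of 0.00129. Fbn1 (fibrillin 1, of elastic microfibrils) had 6.51, 6.56 and 4.79 TPM in WT, 11, 11.6 and 13.0 in DIDO3ΔE16 and 2.23, 2.79 and 3.85 in DIDO3ΔCT+HADIDO3. It was called in both lines (0.93 ± 0.14, adjusted p = 0.0072 and -1.11 ± 0.23, adjusted p = 0.0159, limma), and the DIDO3ΔCT+HADIDO3 call was lost without WT replicate 1, WT replicate 2-3 or DIDO3ΔCT+HADIDO3 replicate 2 (adjusted p up to 0.0542). With the flow cell as a term both were lost (adjusted p = 0.0700 and 0.0668).

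Col2a1 and Col7a1 were called higher in DIDO3ΔE16 and lower in DIDO3ΔCT+HADIDO3. Col2a1, the cartilage fibril collagen, had 4.04, 5.38 and 5.29 TPM in WT, 8.51, 9.0 and 9.30 in DIDO3ΔE16 and 3.15, 3.12 and 2.62 in DIDO3ΔCT+HADIDO3 (0.80 ± 0.14, adjusted p = 0.0112 and -0.80 ± 0.17, adjusted p = 0.0173, limma). Its DIDO3ΔE16 call was lost without WT replicate 1 (log2 fold change 0.66) and its DIDO3ΔCT+HADIDO3 call without WT replicate 2-3, WT replicate 4 or DIDO3ΔCT+HADIDO3 replicate 3 (adjusted p up to 0.0558). With the flow cell as a term both were lost (adjusted p = 0.101 and 0.0599). Col7a1, the anchoring fibril collagen of skin, had 2.23, 2.58 and 2.24 TPM in WT, 5.09, 6.88 and 6.46 in DIDO3ΔE16 and 1.14, 0.979 and 1.36 in DIDO3ΔCT+HADIDO3 (1.28 ± 0.15, adjusted p = 0.00292 and -1.06 ± 0.16, adjusted p = 0.0059, limma). Its site shares bases with a site of Ucn2 on the same strand, so reads of the pair cannot be fully told apart.

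A second set of other matrix genes was higher in DIDO3ΔE16 without being lower in DIDO3ΔCT+HADIDO3. Col11a2, a chain of cartilage fibrils, had 0.987, 0.318 and 0.439 TPM in WT, 18.1, 20.3 and 17.6 in DIDO3ΔE16 and 0.588, 0.458 and 0.657 in DIDO3ΔCT+HADIDO3. The difference from WT in DIDO3ΔE16, 4.84 ± 0.37, adjusted p = 0.000885 on the log2 scale (limma), was the largest of the matrix genes tested in DIDO3ΔE16, and its WT and DIDO3ΔCT+HADIDO3 libraries overlapped. Col20a1, a fibril-associated collagen on chromosome 2, came next, with 1.01, 0.495 and 0.384 TPM in WT, 16, 12.8 and 11.6 in DIDO3ΔE16 and 2.45, 1.91 and 2.86 in DIDO3ΔCT+HADIDO3. It was called higher in both lines (4.24 ± 0.34, adjusted p = 0.00104 and 1.76 ± 0.36, adjusted p = 0.0149, limma), the second lost without DIDO3ΔCT+HADIDO3 replicate 1 or 3 (adjusted p up to 0.0518) and with the flow cell as a term (0.0696).

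Col9a3, a chain of the collagen that coats cartilage fibrils, was already abundant in WT at 75.7, 75.5 and 69.7 TPM. It had 134, 136 and 151 TPM in DIDO3ΔE16 and 63.1, 65.0 and 73.7 in DIDO3ΔCT+HADIDO3, called in DIDO3ΔE16 alone (0.87 ± 0.054, adjusted p = 0.000548, limma) and at -0.24 ± 0.06, adjusted p = 0.0303 in DIDO3ΔCT+HADIDO3. The gene bodies of Col9a3 (chr2:180597790-180622189) and Col20a1 (chr2:180986535-181018363) lie on either side of the Dido1 sites, which span chr2:180655963 to chr2:180688819. Whether this place beside the altered gene bears on their values was not tested. The other type IX chain measured above 1 TPM, Col9a2, averaged 13.4 ± 0.383 TPM (SD, n = 3) in WT, against 14.6 ± 0.502 in DIDO3ΔE16 and 9.66 ± 0.306 in DIDO3ΔCT+HADIDO3, a difference in DIDO3ΔCT+HADIDO3 (-0.57 ± 0.062, adjusted p = 0.00198, limma) under the size of a call. Col9a1 stayed below 1 TPM.

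Col13a1, Col22a1, Col23a1 and Col26a1, all low in WT, were also called higher in DIDO3ΔE16. Col13a1 averaged 1.78 ± 0.0446 TPM (SD, n = 3) in WT and rose to 4.77 ± 0.40 in DIDO3ΔE16 (1.31 ± 0.12, adjusted p = 0.00145, limma), and 3.15 ± 0.449 in DIDO3ΔCT+HADIDO3. A second site of Col13a1 was called higher in DIDO3ΔCT+HADIDO3 (0.740 ± 0.225 TPM in WT and 2.67 ± 0.712, adjusted p = 0.00982, limma). Col22a1 averaged 0.613 ± 0.148 TPM in WT, against 2.08 ± 0.394 in DIDO3ΔE16 and 1.38 ± 0.370 in DIDO3ΔCT+HADIDO3; it was called higher in both (1.56 ± 0.24, adjusted p = 0.00714 and 0.95 ± 0.27, adjusted p = 0.0444, limma), but its DIDO3ΔCT+HADIDO3 call stood in 1 of the 6 fits with 1 library left out, that without WT replicate 4, and reached an adjusted p of 0.115 without others and 0.149 with the flow cell as a term. Col23a1 averaged 1.87 ± 0.499 TPM in WT, against 4.26 ± 0.172 in DIDO3ΔE16 and 2.09 ± 0.426 in DIDO3ΔCT+HADIDO3, with its DIDO3ΔE16 call (1.12 ± 0.23, adjusted p = 0.0167, limma) lost without DIDO3ΔE16 replicate 1 or 2 (adjusted p up to 0.0556). Col26a1 averaged 3.86 ± 0.661 TPM in WT, against 8.32 ± 0.497 in DIDO3ΔE16 (1.04 ± 0.14, adjusted p = 0.00474, limma) and 3.64 ± 0.302 in DIDO3ΔCT+HADIDO3.

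Col18a1 and Col27a1 were called in DIDO3ΔCT+HADIDO3 but not in DIDO3ΔE16. Col18a1, which carries heparan sulfate in basement membranes and is the precursor of endostatin, had 194, 197 and 194 TPM in WT, 161, 165 and 172 in DIDO3ΔE16 and 95, 96.4 and 91.3 in DIDO3ΔCT+HADIDO3. It fell in DIDO3ΔCT+HADIDO3 (-1.15 ± 0.044, adjusted p = 0.000135, limma), and the DIDO3ΔE16 libraries lay between WT and DIDO3ΔCT+HADIDO3 at -0.30 ± 0.032, adjusted p = 0.00224. Col27a1 had 3.08, 4.10 and 3.31 TPM in WT, 4.50, 4.54 and 4.18 in DIDO3ΔE16 and 1.57, 1.39 and 1.60 in DIDO3ΔCT+HADIDO3 (-1.24 ± 0.16, adjusted p = 0.00313, limma, in DIDO3ΔCT+HADIDO3). Where only sites listed once were used, this main site, listed as 3 features, dropped out. The other 3′ site of the gene then gave 0.52 (adjusted p = 0.293, limma).

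The remaining matrix genes were not called against WT. Fn1 (fibronectin), the adhesive glycoprotein that cells bind through integrins, had the highest mean of the matrix genes in WT and DIDO3ΔCT+HADIDO3, and Lamc1 in DIDO3ΔE16: Fn1 had 544, 549 and 601 TPM in WT, 537, 27.5 and 516 in DIDO3ΔE16 and 497, 516 and 492 in DIDO3ΔCT+HADIDO3; without DIDO3ΔE16 replicate 2 its log2 fold change in DIDO3ΔE16 was -0.16. Sparc, a collagen-binding glycoprotein, had 556, 546 and 3.28 TPM in WT, 472, 2.85 and 493 in DIDO3ΔE16 and 2.63, 311 and 275 in DIDO3ΔCT+HADIDO3. One library of each group was near 3 TPM, so that no difference in Sparc could be read. Vcan (versican) averaged 16 ± 0.778 TPM (SD, n = 3) in WT, against 12.6 ± 1.64 in DIDO3ΔE16 and 17.1 ± 4.66 in DIDO3ΔCT+HADIDO3, and Loxl2, a lysyl oxidase relative, had 58.4 ± 2.39, 69.8 ± 5.95 and 46.3 ± 4.05.

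Eln (elastin) averaged 2.00 ± 0.125 TPM (SD, n = 3) in WT, against 1.64 ± 0.272 in DIDO3ΔE16 and 2.05 ± 0.165 in DIDO3ΔCT+HADIDO3. Col10a1 had 4.41 ± 0.631, 4.03 ± 0.601 and 3.30 ± 0.576 TPM in the same order of groups, and Col11a1 1.52 ± 0.220, 2.38 ± 0.0570 and 1.11 ± 0.203. Col8a2 had 1.13 ± 0.225, 2.23 ± 0.503 and 1.48 ± 0.0764 TPM, and Col14a1 0.482 ± 0.25, 1.02 ± 0.506 and 0.297 ± 0.106. Col8a2 missed the p threshold in DIDO3ΔE16 (0.85 ± 0.25, adjusted p = 0.051, limma). A minor site of Vcan was called lower in DIDO3ΔE16 (0.802 ± 0.391 TPM in WT and 0.181 ± 0.0933, adjusted p = 0.0464, limma).

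**Figure D5:**
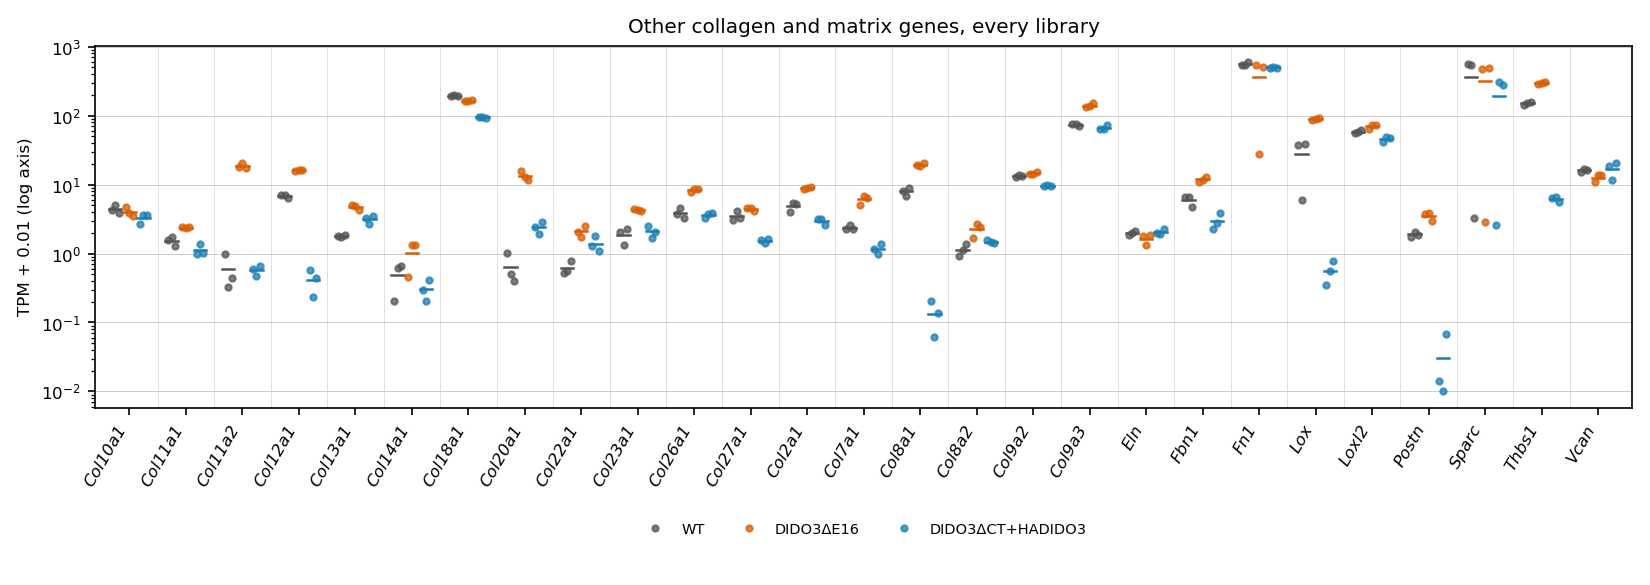
TPM + 0.01 on a log axis for the 27 other matrix genes that reached 1 TPM in a group, with a point for every library and lines at group means. Thbs1, Lox, Col8a1, Col12a1 and Postn lie lowest in DIDO3ΔCT+HADIDO3, Col11a2 and Col20a1 are highest in DIDO3ΔE16, and the single low libraries of Sparc, Fn1 and Lox are seen apart from their groups.

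Compared directly, DIDO3ΔE16 exceeded DIDO3ΔCT+HADIDO3 in many matrix genes: of 56 tested, 28 were called higher in DIDO3ΔE16 and 2 lower (Col5a3 and Col6a4), against 15.4% and 12.2% of 14981 genes (13.9% and 13.4% of all sites). All classes took part, with 6 of 9 fibroblast-type genes, 6 of 18 basement membrane genes and 16 of 29 other matrix genes called higher. The differences reached log2 7.17 ± 0.24 for Lox, 6.83 ± 0.089 for Col1a2, 6.49 ± 0.27 for Col8a1 and 6.35 ± 0.20 for Col5a2. In basement membrane genes they were smaller, at 0.91 ± 0.053 for Col4a1, 0.91 ± 0.068 for Col4a2, 0.89 ± 0.14 for Lama3, 0.76 ± 0.075 for Lamb1, 0.80 ± 0.15 for Lamc3 and 1.22 ± 0.21 for Col4a5. Lamb1 was no longer called without DIDO3ΔE16 replicate 3, at 0.696. Lama1 was not called between the lines (-0.032 ± 0.083, adjusted p = 0.78, limma); a minor site of Lama1 was called lower in DIDO3ΔE16 than in DIDO3ΔCT+HADIDO3 (0.242 ± 0.162 and 2.24 ± 0.319 TPM, adjusted p = 0.00219).

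Genes that fold, bind or cut the matrix were taken from lists made alongside the matrix genes. Over all genes tested, 11.5% were called higher and 4.45% lower in DIDO3ΔE16, and 10% and 8.09% in DIDO3ΔCT+HADIDO3. Of 24 genes of collagen folding and processing, 4 (16.7%) were called higher and none lower in DIDO3ΔE16 (median log2 fold change -0.27), and in DIDO3ΔCT+HADIDO3 3 were called higher and 3 lower (12.5% each, median -0.085), shares near those over all genes. The most abundant, P4hb (a subunit of prolyl 4-hydroxylase), averaged 652 ± 16.6 TPM (SD, n = 3) in WT, against 596 ± 16.1 in DIDO3ΔE16 and 572 ± 22.7 in DIDO3ΔCT+HADIDO3, and was not called. P4ha3, another subunit, had 2.10 ± 0.334, 4.77 ± 0.777 and 0.196 ± 0.11 TPM, and Tll1, a procollagen protease, 3.35 ± 0.388, 6.16 ± 0.959 and 0.515 ± 0.274. Both were called higher in DIDO3ΔE16 and lower in DIDO3ΔCT+HADIDO3. The collagen chaperone Serpinh1 had 185, 8.24 and 202 TPM in WT, 125, 128 and 136 in DIDO3ΔE16 and 77.4, 80.3 and 79.7 in DIDO3ΔCT+HADIDO3, and Tgm2, which crosslinks matrix proteins, was called higher in DIDO3ΔCT+HADIDO3 alone (42.2 ± 4.48 TPM in WT and 134 ± 5.72 in DIDO3ΔCT+HADIDO3).

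Of 19 matrix receptors tested, 4 were called higher and 1 lower in DIDO3ΔE16 (21.1% and 5.26%, against 11.5% and 4.45% of all genes; median -0.20), and 1 higher and 4 lower in DIDO3ΔCT+HADIDO3 (5.26% and 21.1%, against 10% and 8.09%; median -0.25). Ddr2, a receptor of fibrillar collagen, averaged 4.84 ± 0.121 TPM (SD, n = 3) in WT, against 11.1 ± 0.242 in DIDO3ΔE16 and 2.84 ± 0.193 in DIDO3ΔCT+HADIDO3, and Itga11, a collagen-binding integrin chain of fibroblasts, 1.39 ± 0.456, 2.91 ± 0.166 and 0.241 ± 0.113. These were called higher in DIDO3ΔE16 and lower in DIDO3ΔCT+HADIDO3. Itga1, whose integrin binds type IV collagen, was called lower in both, with 4.40 ± 0.652, 1.47 ± 0.260 and 1.84 ± 0.199 TPM. The abundant Itgb4 (456 ± 64.5, 302 ± 36.1 and 518 ± 27.8 TPM) and Sdc4 (235 ± 21, 202 ± 7.34 and 146 ± 7.28 TPM) were not called in DIDO3ΔE16, and Sdc4 was called lower in DIDO3ΔCT+HADIDO3.

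Among 13 matrix proteases and inhibitors tested, 3 were called higher and none lower in DIDO3ΔE16 (23.1% and 0%, against 11.5% and 4.45% of all genes; median 0.26), and in DIDO3ΔCT+HADIDO3 1 was called higher and 4 lower (7.69% and 30.8%, against 10% and 8.09%; median -0.34). Timp2, an inhibitor of matrix metalloproteinases, had 42.2, 49.2 and 52.1 TPM in WT, 117, 123 and 130.0 in DIDO3ΔE16 and 11.8, 11.9 and 10.8 in DIDO3ΔCT+HADIDO3. Adamts5 had 0.957 ± 0.0989, 1.75 ± 0.12 and 0.0990 ± 0.0593 TPM (SD, n = 3). Both were called higher in DIDO3ΔE16 and lower in DIDO3ΔCT+HADIDO3 without overlap. Mmp11, a matrix metalloproteinase, varied between libraries of a group (142, 82.9 and 143 TPM in WT, 60.9, 97.8 and 6.58 in DIDO3ΔE16) and was not called.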

How the data were processed

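The deposited values are TPM. Per the labels and the study's methods, the authors used BWA-MEM 0.7.15 for alignment (mm10) and Picard against duplicates, and had StringTie 1.3.3 estimate TPM over 3′UTRs extended by 2 kb, with no strand option named. Coverage in the same files gave depth. Features with equal coordinates and strand were summed to a site, and each gene was given by its most abundant site, with symbols from GENCODE vM21. Since TPM are not counts, limma 3.58.1 (R 4.3.3; trend and robust moderation) was run in place of the count-based test of the study on log2(TPM + 0.1), libraries scaled by a trimmed mean (30%), over all sites above 0 in every library of a comparison, with Benjamini-Hochberg adjustment. Calls needed adjusted p under 0.05 and a log2 fold change of 0.7 or more in size. An exact permutation test of 3 against 3 libraries cannot go below p = 0.1 and was not used. Matrix genes reaching 1 TPM in a group were named, apart from items not reported here. Matrix genes, marker and pathway lists were chosen with earlier results of these data known. In data simulated for DIDO3ΔE16 against WT (21063 sites, 200 changed, 5 sets), 47% of changes of log2 1 and 66.2% of log2 2 were called. In the data themselves 2151 sites were called higher and 1040 lower. The Benjamini-Hochberg cutoff depends on the share of changed sites, so the simulated shares need not hold for the data. The authors' tables of fold changes and p-values were not used.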

Additional observations from a re-analysis of the deposited data

Results flagged for a closer look

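In 12 matrix genes, the lines were called in opposite directions from WT. These genes were also chosen for a call between the lines, tested directly with limma. A difference between the lines thus follows from the choice, and the direct test adds no support to it. The log2 fold change of DIDO3ΔE16 over DIDO3ΔCT+HADIDO3 was 4.58 for Col1a1, 6.83 for Col1a2, 2.11 for Col5a1, 6.35 for Col5a2 and 3.70 for Col6a1 among fibroblast-type collagens. It was 5.59 for Thbs1, 6.49 for Col8a1, 5.06 for Col12a1, 2.33 for Col7a1, 2.02 for Fbn1 and 1.58 for Col2a1 among other matrix genes. Col5a3 had the opposite sign, at -2.19. No basement membrane gene was called in opposite directions. The share of all genes called in opposite directions was not counted, so the 12 cannot be set against it. With the flow cell as a term, Fbn1 and Col2a1 lost both calls against WT. Col6a1 then lost its DIDO3ΔCT+HADIDO3 call and Col5a3 its DIDO3ΔE16 call.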

How the results depend on the processing

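The 82 gene differences called were recomputed under each alternative, and 24 kept direction and call in all of them. Of 1743 values, 1613 did so, 128 kept direction but lost the call, and 2 reversed. Of the 128, 53 came from the replicate block described below, which lost every call against WT. It called 0 of the 21063 and 20879 sites tested against WT, matrix genes or not. Only the 29 calls of DIDO3ΔE16 against DIDO3ΔCT+HADIDO3 could thus be among the 24. Both reversals were of Col27a1 when gene values came from sites listed as 1 feature, a setting that was chosen after seeing the data, at 0.52 in DIDO3ΔCT+HADIDO3 against WT and -0.40 in DIDO3ΔE16 against DIDO3ΔCT+HADIDO3. The main site of Col27a1, listed as 3 features, drops out in that setting. The values are then those of its other 3′ site and not of the main site processed differently. Under it 16 genes were called higher in DIDO3ΔE16 than in DIDO3ΔCT+HADIDO3, of 37 tested. The count of genes higher in DIDO3ΔCT+HADIDO3 than in WT was 3 with a pseudocount of 1 TPM, 2 at an adjusted p under 0.01 and 3 with the flow cell as a term. Leaving out 1 library at a time, genes higher in DIDO3ΔE16 numbered 21 to 24 and lower 4 to 6, higher in DIDO3ΔCT+HADIDO3 3 to 7 and lower 17 to 19, and in DIDO3ΔE16 against DIDO3ΔCT+HADIDO3 higher 27 to 30 and lower 2. The lowest count in DIDO3ΔCT+HADIDO3, 3, came without DIDO3ΔCT+HADIDO3 replicate 1 or 3. No library reversed a call.

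With the replicate number as a block, 0 genes were called higher and 0 lower in DIDO3ΔE16 and 0 and 0 in DIDO3ΔCT+HADIDO3, against 28 and 2 in DIDO3ΔE16 against DIDO3ΔCT+HADIDO3. Same-numbered libraries did not deviate together (correlations of 0.00322 to 0.0341), so the numbers do not pair the libraries. In WT the block leaves replicate 4 alone, with fewer residual degrees of freedom. Depth limits low genes: those at 0 in a library were not tested.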

Other observations

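Summed over the genes of a class, basement membrane genes had 1569 TPM in WT against 1367 in DIDO3ΔE16 and 1270 in DIDO3ΔCT+HADIDO3, and fibroblast-type collagens 61.5, 136 and 26.8. The most abundant fibroblast-type gene was Col1a2 in WT and DIDO3ΔE16 and Col5a3 in DIDO3ΔCT+HADIDO3, at 11.9 TPM. Tandem neighbours Col6a5 and Col6a4, 28.8 kb apart on chromosome 9, differed in DIDO3ΔCT+HADIDO3: Col6a4 was called higher there, whereas Col6a5 had 0.625, 0.930 and 0.845 TPM in WT and 1.04, 0.826 and 0.742 in DIDO3ΔCT+HADIDO3.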
